A study of Rattus norvegicus with 52 samples.

Results

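Collagens are the gene family described here: every rat gene symbol made of Col, a type number, the letter a and a chain number. Of 34034 symbols in the count tables, 44 had this form, and 40 of them held at least 10 counts in at least 4 of the 52 libraries and were kept. All 40 were among the 17796 genes tested. The other 4 stayed below the count rule: Col10a1 never exceeded 8 counts in a library, Col9a1 11, Col9a3 17 and Col28a1 18.

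The libraries are QuantSeq 3' mRNA libraries, 1 per animal, from the lung of wild-type Sprague Dawley (SD) rats that each received a single intratracheal instillation. Control rats were given distilled water (DW), and the others a quaternary ammonium compound, one of the positively charged surfactants found in disinfectants. The doses of both ABD and ADEB18 were 0.125, 0.25 and 0.5, those of BKC were 0.25, 0.5 and 1, and those of DDAC were 0.0625, 0.125 and 0.25. Each of the 13 groups held 4 rats, and the labels give no dose unit, time of sampling, age or sex. BKC usually stands for benzalkonium chloride, a compound with a benzyl group, and DDAC for didecyldimethylammonium chloride, a compound with paired decyl chains. The labels spell out neither, and ABD and ADEB18 are code names.

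A collagen molecule is a triple helix of chains, each the product of its own gene, which are hydroxylated and folded in the endoplasmic reticulum, secreted, trimmed and, in many types, crosslinked outside the cell. In the lung, types I and III form the fibrils of airway and vessel walls and of the alveolar septum, type IV forms the network of the basement membranes under epithelium and endothelium, and type VI forms beaded filaments at the boundary of basement membrane and fibril. Excess fibril collagen is the hallmark of lung fibrosis. The class and role of each chain given below are textbook knowledge, mostly from human and mouse.

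Total counts ran from 8026084 to 13852249 per library. Levels are given as CPM, counts scaled to a common library size (TMM), and are not divided by transcript length, because the kit reads a tag near the 3' end of each transcript. As a check of the labelled tissue, alveolar type 2 cell markers, including the surfactant genes, summed to between 12967 and 26202.5 CPM over the libraries. Summed cardiac muscle markers ran from 101.9 to 8074 CPM and summed airway basal cell markers from 1.11 to 332 CPM. Libraries thus differed, also within groups, in how much cardiac muscle and airway signal they held. A group level is the mean ± SD of 4 libraries, and the value after ± beside a log2 fold change is its SE from edgeR's quasi-likelihood fit. A gene was called at a Benjamini-Hochberg adjusted p under 0.05 over all 17796 genes.

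In Control lungs a few chains held most of the collagen tags. Col3a1, the single chain of type III, had the highest level, with 3331, 2674, 3724 and 3078 CPM in replicates 1 to 4. Col1a1, the main chain of type I, followed with 2149, 1192, 2725 and 1493 CPM. Col4a1, one of the paired chains of every basement membrane, had 853, 1028, 808 and 1044 CPM. The Control libraries spanned a much wider range for Col1a1 than for Col3a1 or Col4a1. Over all 52 libraries Col3a1 made up 28.4% and Col1a1 15.4% of the summed collagen CPM. At the other end, Col26a1, Col25a1, Col22a1 and Col11a1 averaged under 1 CPM over all libraries, and every one of them was at 0 counts in at least 1 library.

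**Figure D1:**
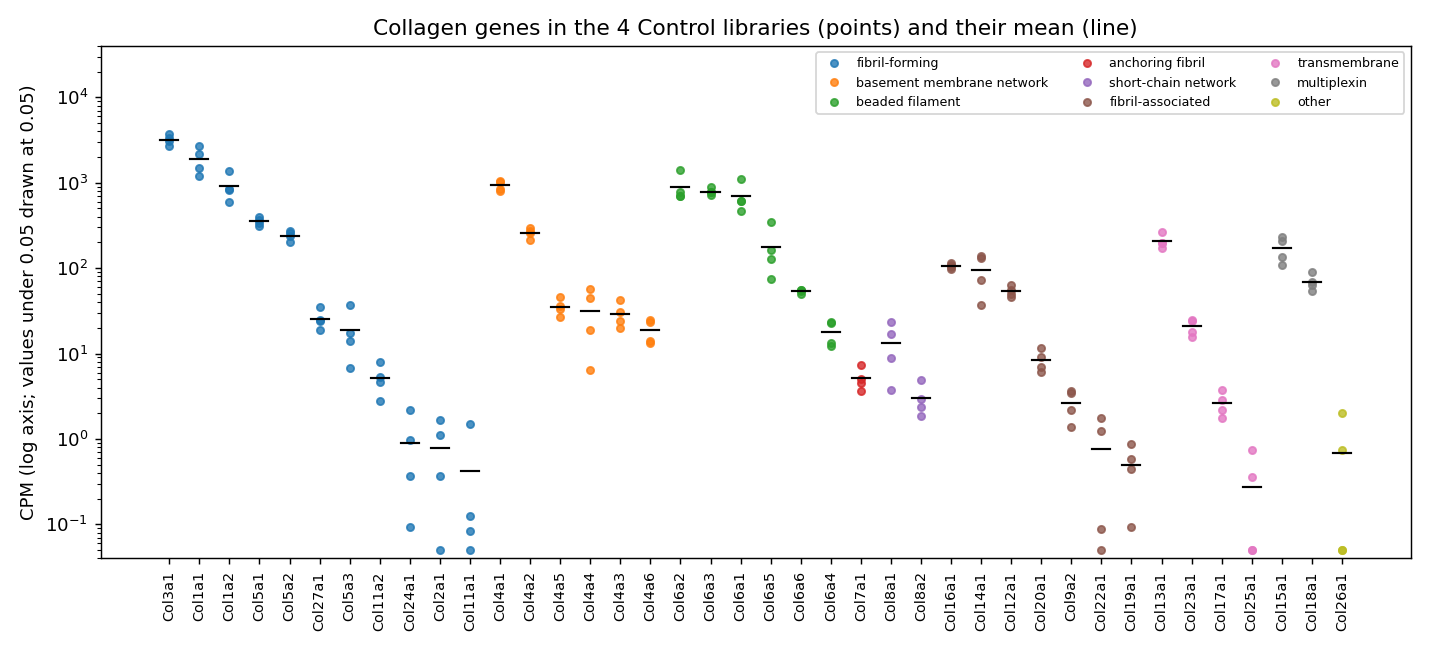
CPM of the 40 collagen genes in the 4 Control libraries on a log axis, one point per library and a line at the mean, ordered by structural class. Col3a1 (3202 ± 441 CPM), Col1a1 (1890 ± 685 CPM) and Col4a1 (933 ± 120 CPM) had the highest means.

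Against Control, edgeR called 7 of the 40 collagen genes in at least 1 dosed group and the other 33 in none; DESeq2 called 3 of those 33, all lower, Col3a1 and Col27a1 at BKC 1 and Col16a1 at DDAC 0.0625. Every call at the upper doses of BKC and ADEB18 was a fall, and Col4a5 with DDAC was the only rise among these calls. At ADEB18 0.5, 4 collagen genes were called, all lower (Col6a1, Col6a2, Col6a3 and Col13a1), which is 10% of the family beside 4.66% of all genes called and 2.1% called lower. At BKC 0.5, 3 were called, all lower (Col6a1, Col6a3 and Col13a1), 7.5% beside 9.15% of all genes called and 4.29% called lower. At BKC 1, 6 were called, all lower (Col6a1, Col6a2, Col6a3, Col4a6, Col13a1 and Col15a1), 15% beside 10.4% of all genes called and 4.56% called lower. At BKC 0.5 the share of the family called in either direction lay below that of all genes. DDAC gave 2 calls at 0.0625, Col4a5 higher and Col6a3 lower, beside 2.32% of all genes called, 0.927% higher and 1.39% lower. Col4a5 alone was called, higher, at DDAC 0.125 beside 1.48% of all genes called and 0.584% higher, and at DDAC 0.25 beside 2.47% called and 1.56% higher.

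The remaining groups gave no collagen call. With ABD, edgeR called 0 collagen genes at 0.125, 0.25 and 0.5, where 0%, 0.0225% and 0.0169% of all genes were called, and DESeq2 called 0 at each dose. At an unadjusted p under 0.05 there were 0, 1 and 2 collagen genes, beside 4.09%, 7.11% and 7.36% of all genes. With ADEB18, edgeR and DESeq2 each called 0 at 0.125 and 0 at 0.25, where edgeR called 0.0393% of all genes at each; 1 and 6 collagen genes had an unadjusted p under 0.05, beside 9.34% and 6.78% of all genes. At BKC 0.25, edgeR called 0 beside 0.208% of all genes and DESeq2 0, with 8 collagen genes at an unadjusted p under 0.05 beside 10.6% of all genes.

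The direction of the whole family is given by its median log2 fold change. At BKC 1 the median over the 40 genes was -0.39, with 24 below 0, beside -0.01 over all genes. At BKC 0.5 it was -0.35, with 32 below 0, and at ADEB18 0.5 it was -0.28, with 31 below 0, beside medians within 0.01 of 0 over all genes. At DDAC 0.25 it was -0.13 with 23 below 0, and at ABD 0.5 it was -0.16 with 26 below 0. Summed collagen CPM were 11356 ± 1959 in Control, 8550 ± 808 at BKC 0.5, 8790 ± 645 at ADEB18 0.5 and 9059 ± 1296 at BKC 1. The sum ranged from 9830 to 14124 CPM over the Control libraries. It ranged from 7643 to 9445 CPM at BKC 0.5, from 8372 to 9738 CPM at ADEB18 0.5 and from 8940 to 9407 CPM at BKC 0.25, all below every Control library, and from 7382 to 10506 CPM at BKC 1, which overlapped Control. All comparisons with Control share the same 4 Control libraries, so their values are not independent. In whole lung, fewer cells of a type and less RNA per cell cannot be told apart.

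**Figure D2:**
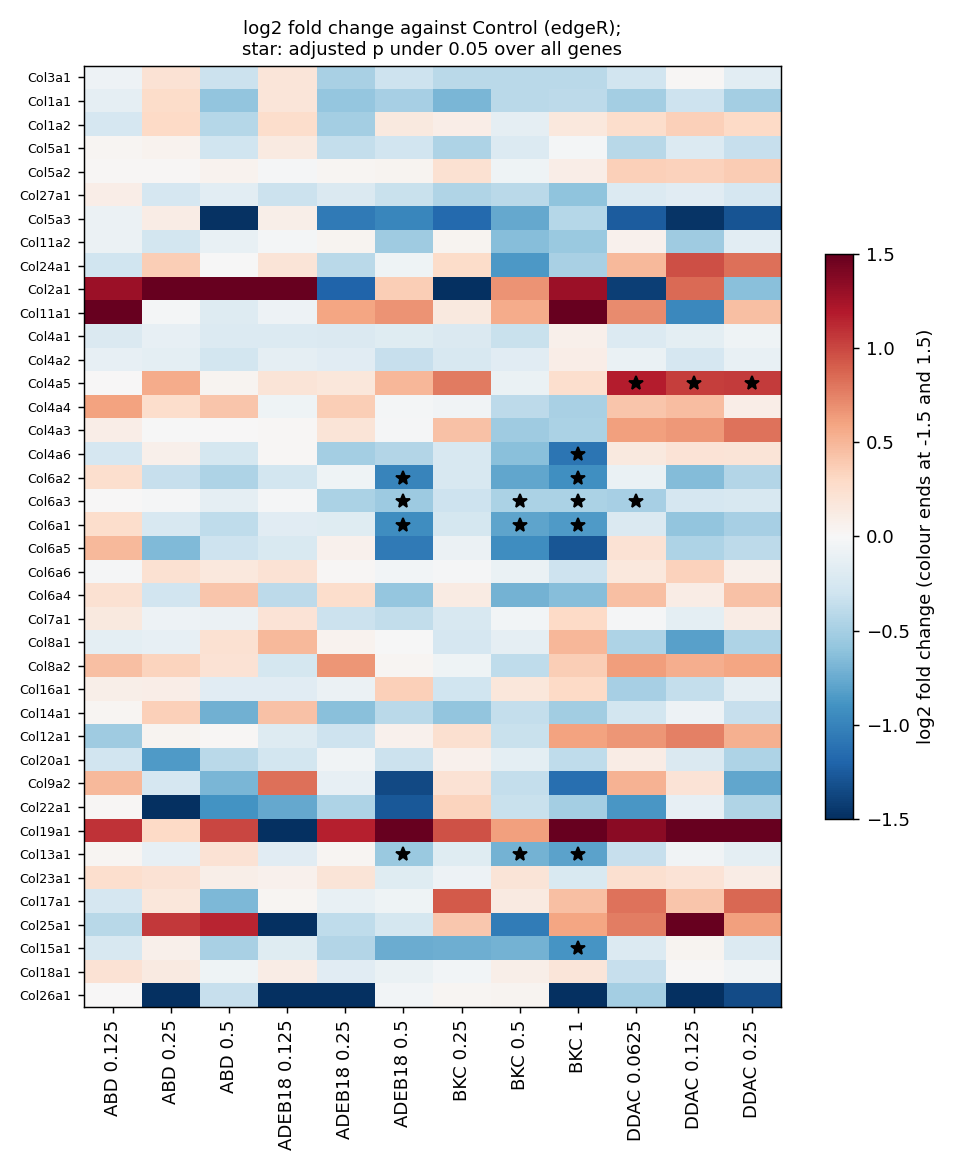
log2 fold change of the 40 collagen genes against Control (rows, ordered by class and Control level) in the 12 dosed groups (columns), in blue for lower and red for higher, with a star where the adjusted p was under 0.05. The stars sit in the Col6a1, Col6a2, Col6a3, Col4a5, Col4a6, Col13a1 and Col15a1 rows, and the ABD columns hold none.

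Over all 13 groups at once, edgeR's quasi-likelihood F test called 14 of the 40 collagen genes, 35% beside 24.2% of all genes. In order of adjusted p these were Col13a1, Col16a1, Col4a5, Col4a6, Col6a3, Col3a1, Col6a1, Col15a1, Col4a3, Col6a2, Col12a1, Col5a3, Col1a1 and Col5a1. The adjusted p was 5.56e-05 for Col13a1 and 0.0294 for Col5a1. This test does not say which groups differ.

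Of the 6 type VI chains, Col6a1, Col6a2 and Col6a3 fell at ADEB18 0.5 and BKC 1, Col6a1 and Col6a3 at BKC 0.5, and Col6a3 alone at DDAC 0.0625, by edgeR. Col6a1 and Col6a2 encode the short chains of the type VI filament and Col6a3 the long chain, and a molecule holds 1 of each. Col6a3 was the steadiest of them among controls, with 713, 891, 772 and 772 CPM in the 4 Control libraries. It stood at 608, 520, 519.5 and 509 CPM at ADEB18 0.5, at 527, 631, 602 and 508 CPM at BKC 0.5, at 555, 607, 464 and 637 CPM at BKC 1, and at 523, 689, 549 and 466 CPM at DDAC 0.0625. All 16 of these libraries lay below all 4 Control libraries. The log2 fold changes were -0.55 ± 0.14 (adjusted p = 0.0154), -0.47 ± 0.14 (0.0222), -0.48 ± 0.14 (0.0193) and -0.50 ± 0.14 (0.0382), in that order, by edgeR.

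Col6a1 had 619, 613, 1099 and 471 CPM in Control. It had 463, 304, 361 and 343 CPM at ADEB18 0.5, 379, 473, 365 and 406 CPM at BKC 0.5, and 444, 337, 364 and 405 CPM at BKC 1. Control replicate 3 stood far above the other controls, and the highest BKC 0.5 library lay above the lowest Control library, while the ADEB18 0.5 and BKC 1 libraries lay below all controls. The log2 fold changes were -0.93 ± 0.26 at ADEB18 0.5 (adjusted p = 0.0287), -0.79 ± 0.26 at BKC 0.5 (0.0435) and -0.85 ± 0.26 at BKC 1 (0.0257) by edgeR. Col6a2 had 694, 769, 1417 and 703 CPM in Control, with replicate 3 again the high library. It had 638, 362, 448 and 356 CPM at ADEB18 0.5 and 559, 392, 481 and 456 CPM at BKC 1, all below the controls, with log2 fold changes of -0.99 ± 0.28 (adjusted p = 0.0328) and -0.92 ± 0.28 (0.0267) by edgeR. At BKC 0.5 Col6a2 had 458, 570.0, 413 and 642 CPM and was not called (-0.78 ± 0.28, adjusted p = 0.0679).

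The Col6a1 and Col6a2 calls rested on Control replicate 3. Without it, edgeR's adjusted p for Col6a1 was 0.151 at ADEB18 0.5, 0.268 at BKC 0.5 and 0.179 at BKC 1, with log2 fold changes of -0.63, -0.48 and -0.55, and for Col6a2 it was 0.157 at ADEB18 0.5 (-0.68) and 0.171 at BKC 1 (-0.61). The Col6a1 and Col6a2 calls at ADEB18 0.5 were also lost without ADEB18 0.5 replicate 2, 3 or 4, those at BKC 1 without BKC 1 replicate 2 or 4 (and for Col6a1 also 3), and the Col6a1 call at BKC 0.5 was kept only without Control replicate 4. Col6a3 kept its calls at ADEB18 0.5, BKC 0.5 and BKC 1 without Control replicate 3, but lost them without Control replicate 2 (adjusted p of 0.0604, 0.0915 and 0.0739), without ADEB18 0.5 replicate 2, 3 or 4, without BKC 0.5 replicate 1, 3 or 4, or without BKC 1 replicate 3; its call at DDAC 0.0625 was lost without 6 of the 8 libraries in turn, with adjusted p up to 0.139, and held without Control replicate 1 or DDAC 0.0625 replicate 2. With the 2 groups alone in the fit, Col6a3 lost its calls at BKC 0.5, BKC 1 and DDAC 0.0625. The adjusted p by edgeR was 0.0569, 0.057 and 0.0716. Col6a1 lost its call at BKC 0.5 in the same setting (0.0596). Without a filter on low counts, the Col6a3 call at DDAC 0.0625 was lost as well (0.0558). The Col6a3 call at ADEB18 0.5 held in both settings. No value turned its direction. Of the longer type VI chains, Col6a4, Col6a5 and Col6a6 were not called in any comparison with Control; at BKC 1 their log2 fold changes were -0.64, -1.28 and -0.31.

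**Figure D3:**
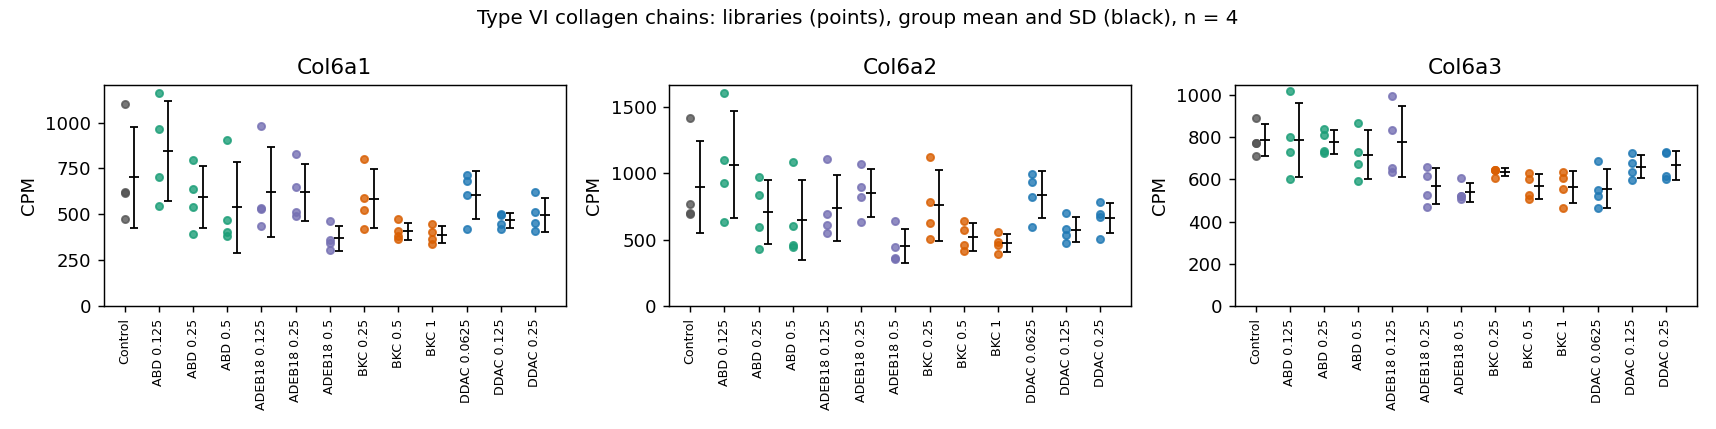
CPM of Col6a1, Col6a2 and Col6a3 in each of the 52 libraries (points, 4 per group) with the group mean and SD (black), CPM axes from 0. Control replicate 3 is the high point for Col6a1 (1099 CPM) and Col6a2 (1417 CPM), and the Col6a3 libraries at ADEB18 0.5, BKC 0.5 and BKC 1 lie below all 4 controls.

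Col13a1 encodes the single chain of type XIII, a collagen that spans the cell membrane and sits at cell junctions and adhesions. Its Control libraries held 197, 267, 174 and 197 CPM. It had 139.7, 149, 156 and 123 CPM at ADEB18 0.5, 128, 134, 95.5 and 156 CPM at BKC 0.5, and 140.0, 91.4, 139 and 109 CPM at BKC 1. None of these 12 libraries reached the lowest control. The log2 fold changes were -0.56 ± 0.16 (adjusted p = 0.0398), -0.70 ± 0.16 (0.00442) and -0.80 ± 0.16 (0.00119), in that order, by edgeR. The call at BKC 1 held without each of its 8 libraries in turn (adjusted p up to 0.0119), the call at BKC 0.5 was lost without BKC 0.5 replicate 3 (0.0596), and the call at ADEB18 0.5 was kept only without Control replicate 3 (adjusted p up to 0.175). At DDAC 0.0625, 0.125 and 0.25 the level was 164 ± 18.4, 201 ± 33.5 and 189 ± 21.4 CPM, with no call.

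Endothelial and alveolar type 1 cell markers were compared in the groups in which Col13a1 fell. Their counts called lower by edgeR stand beside 2.1%, 4.29% and 4.56% of all genes called lower at ADEB18 0.5, BKC 0.5 and BKC 1. Of 13 listed endothelial markers, all tested, 8 were called lower at BKC 0.5, 5 at BKC 1 and 0 at ADEB18 0.5 by edgeR; at ADEB18 0.5 all 13 had a log2 fold change below 0, 9 had an unadjusted p under 0.05, and DESeq2 called 4. Their summed level ran from 3297 to 4215 CPM in Control, from 1950 to 3115 CPM at BKC 0.5, from 2248 to 3153 CPM at BKC 1 and from 2786 to 3137 CPM at ADEB18 0.5. Within groups, over 52 libraries with group means removed, Col13a1 and the summed endothelial markers had Pearson r = 0.83 and Spearman rho = 0.77 (permutation within groups, adjusted p = 0.00112 and 0.00056 over 112 relations), and r = 0.82 without the 2 libraries farthest from the median of Col13a1. Of 11 alveolar type 1 markers, all tested, 1, 3 and 3 were called lower by edgeR at ADEB18 0.5, BKC 0.5 and BKC 1. Their sum ran from 7425 to 10856 CPM in Control, from 6089 to 7949 CPM at ADEB18 0.5, from 4563 to 7827 CPM at BKC 0.5 and from 5272 to 7285 CPM at BKC 1. Within groups, Col13a1 and this sum had r = 0.65 and rho = 0.59 (permutation within groups, adjusted p = 0.00112 for each), and r = 0.68 without the 2 farthest libraries. Col13a1 also had r = -0.63 (rho = -0.59) with summed airway basal cell markers and r = -0.54 (rho = -0.47) with summed cardiac muscle markers. The adjusted p of these r was 0.00112 and 0.011 (permutation within groups). The part of the endothelial, alveolar type 1, airway basal and cardiac markers in the fall of Col13a1 was not tested.

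The type IV chains assemble as fixed trimers: Col4a1 with Col4a2 in all basement membranes, Col4a3 with Col4a4 and Col4a5 in the membrane shared by alveolar epithelium and capillary, and Col4a5 with Col4a6 in smooth muscle and airway membranes. In the genome the genes of each pair stand head to head. In RefSeq's annotation of assembly GRCr8, the starts of Col4a1 and Col4a2 are 77 bases apart on chromosome 16, those of Col4a3 and Col4a4 are 413 bases apart on chromosome 9 and those of Col4a5 and Col4a6 are 1415 bases apart on chromosome X. The promoter windows of the first and the third pair (250 bases before to 50 after each start) are shown because these pairs behaved differently in the counts, as described after them. Capitals mark CCAAT, or ATTGG where it lies on the other strand; TATAAA, searched on both strands as well, was in none of the 4 windows.
Col4a1 (chr16:84885347-84885646, + strand): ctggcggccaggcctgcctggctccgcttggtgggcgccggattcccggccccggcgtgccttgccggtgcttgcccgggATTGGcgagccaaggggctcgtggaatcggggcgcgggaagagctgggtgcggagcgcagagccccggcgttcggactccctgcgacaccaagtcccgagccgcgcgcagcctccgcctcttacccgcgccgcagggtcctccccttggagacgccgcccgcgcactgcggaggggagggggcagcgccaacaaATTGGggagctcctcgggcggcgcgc
Col4a2 (chr16:84885471-84885770, - strand): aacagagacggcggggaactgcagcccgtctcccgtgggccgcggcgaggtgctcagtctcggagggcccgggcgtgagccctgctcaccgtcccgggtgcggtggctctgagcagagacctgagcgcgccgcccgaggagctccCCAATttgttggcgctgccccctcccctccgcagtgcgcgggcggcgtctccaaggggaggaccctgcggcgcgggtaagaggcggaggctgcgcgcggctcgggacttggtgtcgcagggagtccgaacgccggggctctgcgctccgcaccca
Col4a5 (chrX:109907109-109907408, + strand): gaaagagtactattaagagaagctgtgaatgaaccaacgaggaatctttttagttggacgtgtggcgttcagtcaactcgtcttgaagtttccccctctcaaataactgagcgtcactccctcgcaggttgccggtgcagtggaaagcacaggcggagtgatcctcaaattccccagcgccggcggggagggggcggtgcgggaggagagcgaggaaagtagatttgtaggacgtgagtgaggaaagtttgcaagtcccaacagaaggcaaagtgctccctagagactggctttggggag
Col4a6 (chrX:109905895-109906194, - strand): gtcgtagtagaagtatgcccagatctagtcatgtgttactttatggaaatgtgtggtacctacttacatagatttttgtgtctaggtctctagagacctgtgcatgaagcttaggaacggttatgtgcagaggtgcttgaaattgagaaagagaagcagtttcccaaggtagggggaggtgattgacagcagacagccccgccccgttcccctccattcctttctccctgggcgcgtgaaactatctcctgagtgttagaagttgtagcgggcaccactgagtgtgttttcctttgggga

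The Col4a1 and Col4a2 windows share 176 bases, read on opposite strands, and the Col4a5 and Col4a6 windows share none. CCAAT or ATTGG was present in the Col4a1 and Col4a2 windows and absent from the Col4a5 and Col4a6 windows. Both were also absent from the Col4a3 and Col4a4 windows, which share 88 bases. Within groups, Col4a3 and Col4a4 had r = 0.41 (permutation within groups, adjusted p = 0.0161). Without the 2 farthest libraries r was 0.34, no longer past the threshold. The part of these sequences in the counts was not tested. Of the 40 collagen genes, 32 had a window; 9 of these (28.1%) held CCAAT on either strand beside 37.5% of all windows of 300 bases, and 3 (9.38%) held TATAAA beside 14.2%. A match is a description of the letters and not of binding.

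Col4a5 was the only collagen gene called higher than Control. It had 32.9, 45.4, 36 and 27.2 CPM in Control. It had 98.9, 68.7, 85.0 and 67.8 CPM at DDAC 0.0625, 74.8, 71.2, 72.5 and 70.4 CPM at DDAC 0.125 and 97.4, 62.8, 74.9 and 57.5 CPM at DDAC 0.25. All 12 DDAC libraries lay above all 4 controls, with no order by dose. The log2 fold changes were 1.18 ± 0.28 (adjusted p = 0.0154), 1.03 ± 0.28 (0.0479) and 1.05 ± 0.28 (0.0336) by edgeR, which are folds of 2.27, 2.05 and 2.07. With 1 library left out, the call at 0.0625 was lost without Control replicate 4 (0.0836) or DDAC 0.0625 replicate 1, the call at 0.125 was kept only without Control replicate 2 (adjusted p up to 0.175), and the call at 0.25 was kept only without Control replicate 2 or DDAC 0.25 replicate 4 (up to 0.129). In the other compounds the group means ran from 33.0 CPM (BKC 0.5) to 60.7 CPM (BKC 0.25), and at BKC 0.25 the log2 fold change was 0.78 with no call. Summed pericyte markers, 9 of 9 tested, ran from 537 to 638 CPM in Control and from 628 to 876 CPM in the DDAC libraries. Summed smooth muscle and myofibroblast markers, 10 of 10 tested, ran from 1466 to 3582 and from 2728 to 4839 CPM. At DDAC 0.0625 and 0.125 edgeR called 0 of either list, and DESeq2 called only Postn, higher, which is on both lists. At DDAC 0.25 edgeR called only Postn, higher (0.74 ± 0.18, adjusted p = 0.0218), beside 1.56% of all genes called higher. At an unadjusted p under 0.05 there were 3, 2 and 2 pericyte markers in order of dose. For the smooth muscle and myofibroblast list there were 4, 1 and 1. Within groups, Col4a5 and the summed smooth muscle and myofibroblast markers had r = 0.18 and rho = 0.21 (permutation within groups, adjusted p = 0.461 and 0.367 over 112 relations). No such relation was computed for pericyte markers. The part of these markers in the rise of Col4a5 was not tested.

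Col4a6 went the other way in another group. It had 24.7, 14.2, 23.1 and 13.1 CPM in Control and 10.8, 9.76, 9.99 and 4.80 CPM at BKC 1, where every library lay below every control. The log2 fold change was -1.09 ± 0.24 (edgeR, adjusted p = 0.0019), and the call held without each library in turn (adjusted p up to 0.0211), but not with Control and BKC 1 alone in the fit (0.0552). At DDAC 0.0625, 0.125 and 0.25 Col4a6 stood at 20.7 ± 3.28, 21.7 ± 5.41 and 21.4 ± 2.22 CPM, with log2 fold changes of 0.14, 0.20 and 0.19 and no call. Col4a1 was not called in any comparison with Control: its log2 fold changes lay between -0.34 (BKC 0.5, interval -0.63 to -0.04) and 0.08 (BKC 1), and Col4a2, Col4a3 and Col4a4 were not called in any of them either. At BKC 1 Col4a1 had 772, 917, 719 and 1544 CPM, the last from a single high library. Col4a3 reached its highest fold at DDAC 0.25, 0.82 ± 0.30 (edgeR, adjusted p = 0.135).

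Col15a1 encodes type XV, a collagen with interrupted helix that bridges basement membranes and the matrix beneath them. It had 231, 209.7, 136 and 109.8 CPM in Control and 77.7, 126, 80.7 and 86.7 CPM at BKC 1, so that the highest BKC 1 library lay above the lowest control. The log2 fold change was -0.89 ± 0.24 (edgeR, adjusted p = 0.0128). The call was lost without Control replicate 1 or 2, the high controls (adjusted p up to 0.0757). At ADEB18 0.5, BKC 0.25 and BKC 0.5 the group means were 103 ± 9.98, 104 ± 19.1 and 105 ± 27.8 CPM beside 172 ± 58.0 CPM in Control, and edgeR made no call (adjusted p = 0.0615, 0.212 and 0.0535); DESeq2 called Col15a1 lower at ADEB18 0.5 and BKC 0.5. Col18a1, the other member of this class and the source of endostatin, was called in no comparison.

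**Figure D4:**
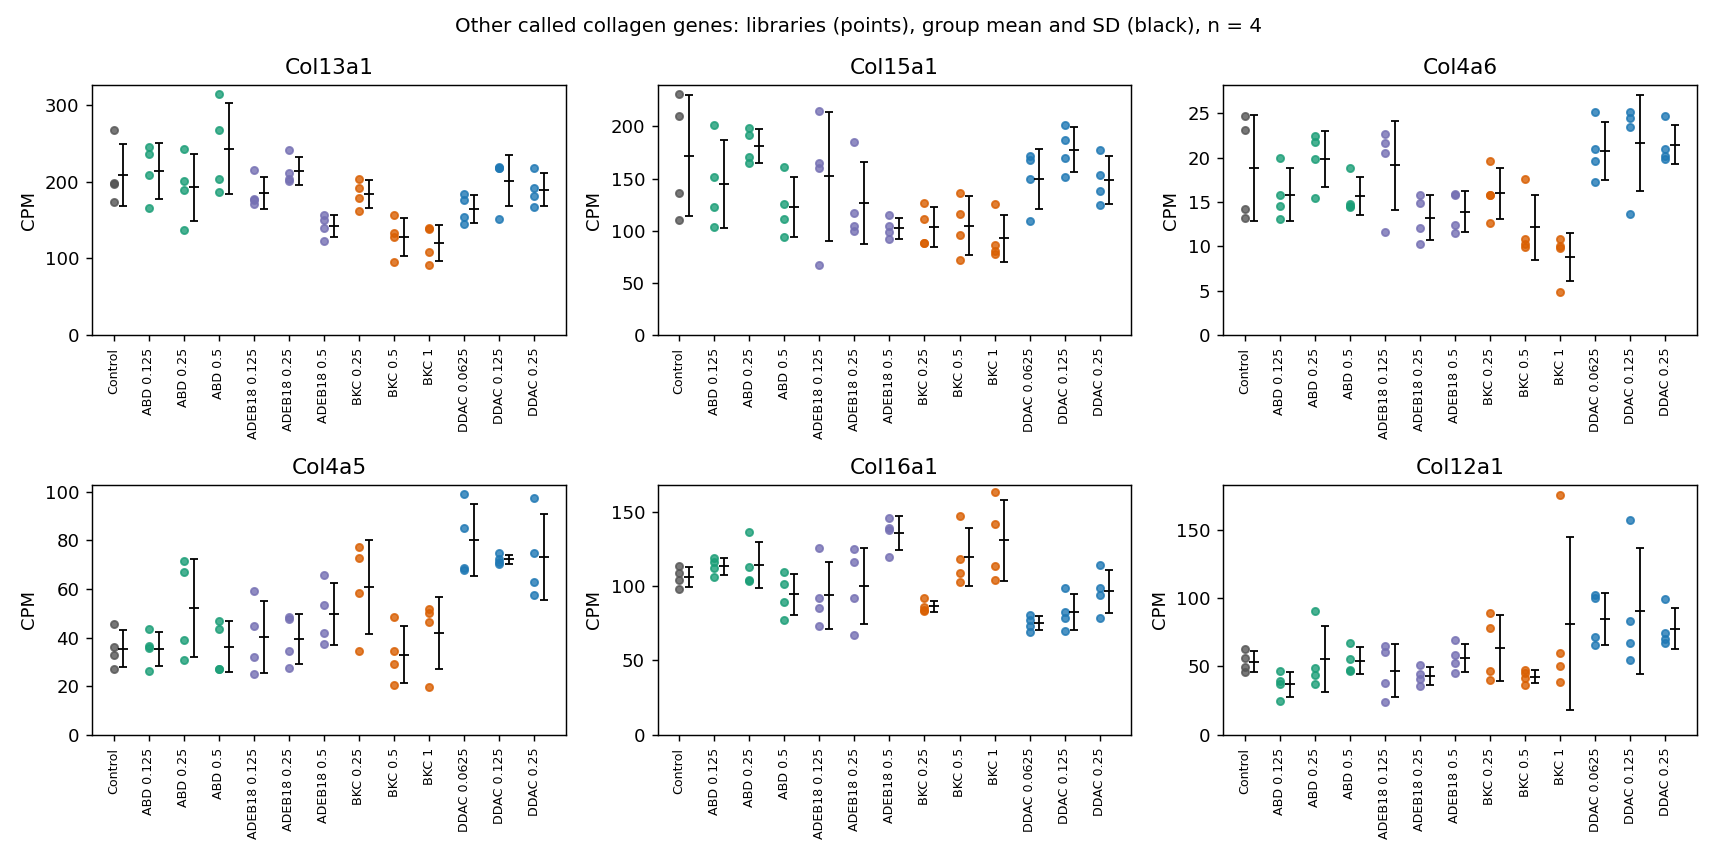
CPM of Col13a1, Col15a1, Col4a6, Col4a5, Col16a1 and Col12a1 in each of the 52 libraries (points, 4 per group) with the group mean and SD (black), CPM axes from 0. Col13a1 is lowest at BKC 1 (120 ± 23.8 CPM), Col4a6 at BKC 1 (8.83 ± 2.72 CPM), and all DDAC libraries of Col4a5 lie above the 4 controls.

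The fibril-forming class, 11 genes, gave 0 calls against Control in any group by edgeR; between 0 and 5 of the 11 had an unadjusted p under 0.05, and DESeq2 called 2 (Col3a1 and Col27a1, both lower) at BKC 1 and 0 elsewhere. Col1a1 had a log2 fold change of -0.39 ± 0.26 at BKC 1 (edgeR, adjusted p = 0.377, interval -0.91 to 0.13), from 1346, 1648, 959 and 1815 CPM; replicate 3 lay below every control and the others within their range. Its largest fold in size was at BKC 0.25, -0.69 ± 0.26 (adjusted p = 0.279), where the 4 libraries held 1126 to 1229 CPM. Col3a1 stood at 2517, 2997, 2113 and 2036 CPM at BKC 1 and at 2641, 1915, 2517 and 2577 CPM at BKC 0.5, and its log2 fold change was -0.41 ± 0.16 at both (edgeR, adjusted p = 0.0887 and 0.094). No rise of Col1a1, Col1a2 or Col3a1 was called at any dose. The upper bound of the interval at BKC 1 was a log2 fold change of 0.13 for Col1a1 and -0.09 for Col3a1. No bound is given here for Col1a2, which had 910 ± 325 CPM in Control and ran from 347 to 2113 CPM over all libraries. At BKC 1, 7 of the 11 fibril-forming genes had a log2 fold change below 0, with a median of -0.39. Col5a3, a minor chain of type V, ranged most among the better expressed members of this class, from 4.02 to 45.4 CPM over the libraries.

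Within groups, Col1a1 and Col3a1 moved with airway basal and cardiac muscle signal. With group means removed, Col1a1 had r = 0.65 (rho = 0.58) with summed airway basal cell markers and r = 0.52 (rho = 0.45) with summed cardiac markers over 52 libraries, and r = -0.63 (rho = -0.68) with summed alveolar type 1 cell markers (permutation within groups, adjusted p = 0.00397, 0.0128 and 0.0016 over 112 relations). Without the 2 farthest libraries these r were 0.60, 0.47 and -0.58. Col3a1 had r = 0.62, 0.47 and -0.66 with the same sums. Col1a1 was highest at ABD 0.25 replicate 2 (3515 CPM), the library in which the airway basal sum also reached its highest value (332 CPM). Group means of the airway basal sum ran from 19.5 ± 12.4 CPM at DDAC 0.25 to 138 ± 158 CPM at ABD 0.25, beside 70.05 ± 67.6 CPM in Control. The part of such signal in the group levels of Col1a1 and Col3a1 was not tested.

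Col16a1, Col12a1 and Col19a1 are fibril-associated collagens, which decorate fibrils rather than form them. None was called against Control by edgeR, and DESeq2 called Col16a1 lower at DDAC 0.0625, where it had 76.9, 69.3, 73.3 and 80.6 CPM (edgeR, -0.50, adjusted p = 0.0639). Col16a1, found around smooth muscle and fibroblasts, differed between doses. It had 85.7, 91.9, 84.1 and 83.4 CPM at BKC 0.25 and 114, 163, 104 and 141 CPM at BKC 1, without overlap. It had 85.2, 125, 72.9 and 92.0 CPM at ADEB18 0.125 and 119.7, 137, 146 and 139 CPM at ADEB18 0.5, where the lowest library of the higher dose lay just below the highest of the lower dose. Control had 104, 97.8, 114 and 109 CPM, and its mean of 106 CPM lay between the means of the lower and the higher doses.

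The other 30 collagen genes were called in none of the 28 comparisons by edgeR; DESeq2 called 6 of them in at least 1 comparison (Col1a1, Col3a1, Col4a3, Col6a4, Col8a1 and Col27a1). Among the better expressed of them, Control levels were 355 ± 38.1 CPM for Col5a1 and 240.4 ± 30.9 CPM for Col5a2, the type V chains that start fibrils, 95.1 ± 48.4 CPM for Col14a1, a fibril-associated chain, and 69.1 ± 15.2 CPM for Col18a1. Their log2 fold changes against Control stayed between -0.47 and 0.14, -0.06 and 0.38, -0.72 and 0.44, and -0.35 and 0.22 over the 12 dosed groups. Col7a1, whose anchoring fibrils tie basement membrane to stroma, and Col17a1, a hemidesmosome component of basal cells, were scarce at 5.12 ± 1.55 and 2.65 ± 0.89 CPM in Control, which limits what could be seen for them.

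Between the ends of the dose ranges, edgeR called 3 collagen genes for BKC, 7.5% beside 3.99% of all genes: Col13a1 fell by 0.62 on the log2 scale from BKC 0.25 to BKC 1 (SE 0.16, adjusted p = 0.0228), Col4a6 fell by 0.85 (SE 0.24, 0.0286) and Col16a1 rose by 0.60 (SE 0.15, 0.0171). At BKC 0.25 Col13a1 had 179, 162, 203 and 192 CPM and Col4a6 15.8, 15.8, 19.6 and 12.6 CPM, all above the BKC 1 libraries. For ADEB18 edgeR called 3, 7.5% beside 2.44% of all genes: Col6a3 fell by 0.53 (SE 0.14, adjusted p = 0.0258), Col16a1 rose by 0.53 (SE 0.15, 0.0466), and Col19a1 was higher at the upper dose. Col6a3 had 637, 657, 832 and 995 CPM at ADEB18 0.125, all above the ADEB18 0.5 libraries. Col19a1 is a scarce transcript here: it had 0, 4, 0 and 0 counts at ADEB18 0.125 and 32, 12, 16 and 10 counts at ADEB18 0.5 (adjusted p = 0.037), and no fold is given against libraries at 0. For ABD 0 collagen genes were called between 0.5 and 0.125 beside 0.0169% of all genes (0 by DESeq2, and 3 at an unadjusted p under 0.05 beside 6.06% of all genes), and for DDAC 0 between 0.25 and 0.0625 beside 0.0225% (0 by DESeq2, and 1 at an unadjusted p under 0.05 beside 6.48%).

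All 6 dose calls depended on single libraries. In the BKC comparison Col13a1 and Col16a1 lost their calls without BKC 0.25 replicate 3 or 4 or BKC 1 replicate 2 or 4 (adjusted p up to 0.166 and 0.142), and Col4a6 kept its call without BKC 0.25 replicate 4, BKC 1 replicate 1 or BKC 1 replicate 3 alone (otherwise up to 0.187). In the ADEB18 comparison Col16a1 and Col19a1 kept theirs only without ADEB18 0.125 replicate 2 (up to 0.206 and 0.124), and Col6a3 kept its own without ADEB18 0.125 replicate 1, ADEB18 0.125 replicate 2 or ADEB18 0.5 replicate 1 alone (otherwise up to 0.105). With the libraries of the 2 groups alone in the fit, 0 of these 6 calls remained.

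Compounds were compared at the same dose value in 12 pairs, and 6 values in 4 pairs were called; since the dose unit is not stated, equal values are the only match that can be made. At 0.5, Col13a1 separated ABD from both other compounds. It had 203, 186, 267 and 315 CPM at ABD 0.5, above every library of BKC 0.5 and ADEB18 0.5. BKC against ABD gave a log2 difference of -0.92 (interval -1.25 to -0.59, edgeR, adjusted p = 0.000655), the only collagen call of that pair beside 8.28% of all genes, and ADEB18 against ABD gave -0.77 (interval -1.10 to -0.44, adjusted p = 0.00738). Both calls held without each library in turn, with adjusted p up to 0.0122 and 0.0472. ADEB18 0.5 also exceeded ABD 0.5 in Col16a1, which had 109, 89.5, 101 and 77.4 CPM at ABD 0.5, by 0.52 (interval 0.22 to 0.83, adjusted p = 0.0418), so that 2 collagen genes were called in this pair beside 3.51% of all genes; the Col16a1 call was kept only without ABD 0.5 replicate 1 or ADEB18 0.5 replicate 1 (adjusted p up to 0.158). Between BKC and ADEB18 at 0.5 edgeR called 0 collagen genes and 0% of all genes, with 0 by DESeq2 and 1 collagen gene at an unadjusted p under 0.05 beside 3.86% of all genes; the log2 difference of Col13a1 was -0.15 (interval -0.48 to 0.18), that of Col6a3 0.07 (-0.20 to 0.35) and that of Col6a1 0.14 (-0.37 to 0.66).

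At 0.125, DDAC exceeded ABD in Col4a5 and in Col12a1, a fibril-associated collagen of dense and stretched tissue, 2 calls or 5% beside 1.97% of all genes. Col4a5 had 26.1, 36.4, 43.4 and 35.8 CPM at ABD 0.125, below every DDAC 0.125 library, and the log2 difference was 1.03 (interval 0.46 to 1.60, edgeR, adjusted p = 0.0446). Col12a1 had 39, 24.9, 46.6 and 37.4 CPM at ABD 0.125 and 157, 54.8, 82.8 and 67.0 CPM at DDAC 0.125, again without overlap, and the log2 difference was 1.29 (interval 0.63 to 1.95, adjusted p = 0.0271). Control had 62.8, 56.1, 49.4 and 45.8 CPM of Col12a1 and overlapped both. The Col12a1 call was lost without DDAC 0.125 replicate 1 or 3 or ABD 0.125 replicate 1, 2 or 4 (adjusted p up to 0.195), and the Col4a5 call was kept only without ABD 0.125 replicate 3 (up to 0.169).

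ADEB18 against DDAC at 0.125 gave 1 call beside 1.05% of all genes, for Col19a1, which had 0, 4, 0 and 0 counts with ADEB18 and 37, 19, 37 and 0 counts with DDAC (edgeR, adjusted p = 0.0263); the groups overlap at 0. This call was lost without ADEB18 0.125 replicate 1 or 3 or DDAC 0.125 replicate 1 or 3 (adjusted p up to 0.0918). For Col4a5 in that pair the log2 difference was -0.84 (interval -1.41 to -0.28, adjusted p = 0.121). In the remaining pairs edgeR called 0 collagen genes. At 0.125, ADEB18 against ABD also had 0 by DESeq2, with 1 collagen gene at an unadjusted p under 0.05; 0.0169% of all genes were called and 7.32% had an unadjusted p under 0.05. At 0.25, 3 pairs had 0 by DESeq2 too. BKC against DDAC had 1 collagen gene at an unadjusted p under 0.05 beside 7.54% of all genes, with 0.0337% called. BKC against ADEB18 had 1 beside 5.6%, with 0% called, and DDAC against ABD had 7 beside 16.6%, with 1.29% called. DESeq2 called 3 collagen genes for BKC against ABD at 0.25 (Col1a1, Col3a1 and Col15a1), where 10 had an unadjusted p under 0.05 beside 11.9% of all genes and edgeR called 0.129% of all genes. It called Col4a5 for DDAC against ADEB18, with 7 beside 13.7% and 1.31% called by edgeR, and Col3a1 for ADEB18 against ABD, with 11 beside 8.81% and 0.0169% called by edgeR. BKC and DDAC, the benzyl and the twin-chain compound by their usual names, met at 0.25, where Col4a5 differed by -0.27 on the log2 scale (interval -0.83 to 0.29) and Col13a1 by -0.04 (-0.37 to 0.29); these intervals do not show that the compounds act alike.

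Chains that share a molecule were compared across rats within groups. Of 9 pairs whose chains were both tested, out of 11 listed, 5 had a positive correlation with an adjusted p under 0.05 (residual log2 CPM with group means removed, 52 libraries, permutation within groups, adjusted over 9 pairs). Col6a1 and Col6a2 had r = 0.95 (rho = 0.92) and Col4a1 and Col4a2 r = 0.80 (rho = 0.76), both with a permutation p of 1e-05, the smallest that the permutations can give, and an adjusted p of 4.5e-05. Col1a1 and Col1a2 had r = 0.66 (rho = 0.58, adjusted p = 0.00054), and Col6a2 and Col6a3 had r = 0.54 (rho = 0.47, adjusted p = 0.000967). Without the 2 libraries farthest from the median of the first gene these r were 0.94, 0.73, 0.57 and 0.53. Col4a3 and Col4a4 had r = 0.41 (rho = 0.41, adjusted p = 0.0161), and r = 0.34 without the 2 farthest libraries, no longer past the threshold. The other pairs were not called: r was 0.16 for Col4a4 and Col4a5, 0.22 for Col5a1 and Col5a2, -0.17 for Col8a1 and Col8a2 and -0.23 for Col11a1 and Col11a2.

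The type VI chains also moved with smooth muscle signal from rat to rat. With group means removed, the summed smooth muscle and myofibroblast markers had r = 0.69 with Col6a1, 0.66 with Col6a2, 0.62 with Col6a5 and 0.51 with Col6a3 (rho = 0.67, 0.64, 0.56 and 0.46; permutation within groups, adjusted p = 0.00134, 0.0016, 0.00308 and 0.0131 over 112 relations). Without the 2 libraries farthest from the median of the gene, r was 0.66, 0.61, 0.67 and 0.44. The summed markers ran from 1466 to 3582 CPM in Control, from 1745 to 2074 CPM at ADEB18 0.5, from 1527 to 2507 CPM at BKC 0.5 and from 1928 to 3064 CPM at BKC 1. In these dosed groups 0 of the 10 markers, all tested, were called by edgeR, and 4, 3 and 2 had an unadjusted p under 0.05. DESeq2 called 2, 0 and 1, of which 1 at ADEB18 0.5 and the 1 at BKC 1 were higher. At DDAC 0.0625, where Col6a3 was called lower, the sum ran higher, from 3335 to 4839 CPM, with 0 of 10 called by edgeR, 4 at an unadjusted p under 0.05 and 1, higher, by DESeq2. Summed fibroblast markers were 2506 ± 103 CPM in Control, 1907 ± 289 CPM at ADEB18 0.5, 1766 ± 290 CPM at BKC 0.5 and 1723 ± 281 CPM at BKC 1. Of the 14 fibroblast markers, all tested, 2, 3 and 4 were called lower in these dosed groups, beside 2.1%, 4.29% and 4.56% of all genes called lower. Among these markers were Dpt in each group (-0.39 ± 0.12, -0.50 ± 0.12 and -0.56 ± 0.12) and Pdgfra, the receptor that marks alveolar fibroblasts, in the first and second of them (-0.51 ± 0.12 in both). Within groups, the summed fibroblast markers had r = -0.03 with Col6a1, 0.03 with Col6a2, 0.10 with Col6a5 and -0.02 with Col6a3. None of these was called (permutation within groups, adjusted p = 0.899, 0.899, 0.686 and 0.941 over 112 relations). Col6a3 also had r = -0.46 (rho = -0.49) within groups with summed airway basal cell markers. The adjusted p was 0.0377 for r and 0.0224 for rho (permutation within groups), and r was -0.41 without the 2 farthest libraries. The part of fibroblast, smooth muscle and airway basal signal in the fall of the type VI chains was not tested.

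**Figure D5:**
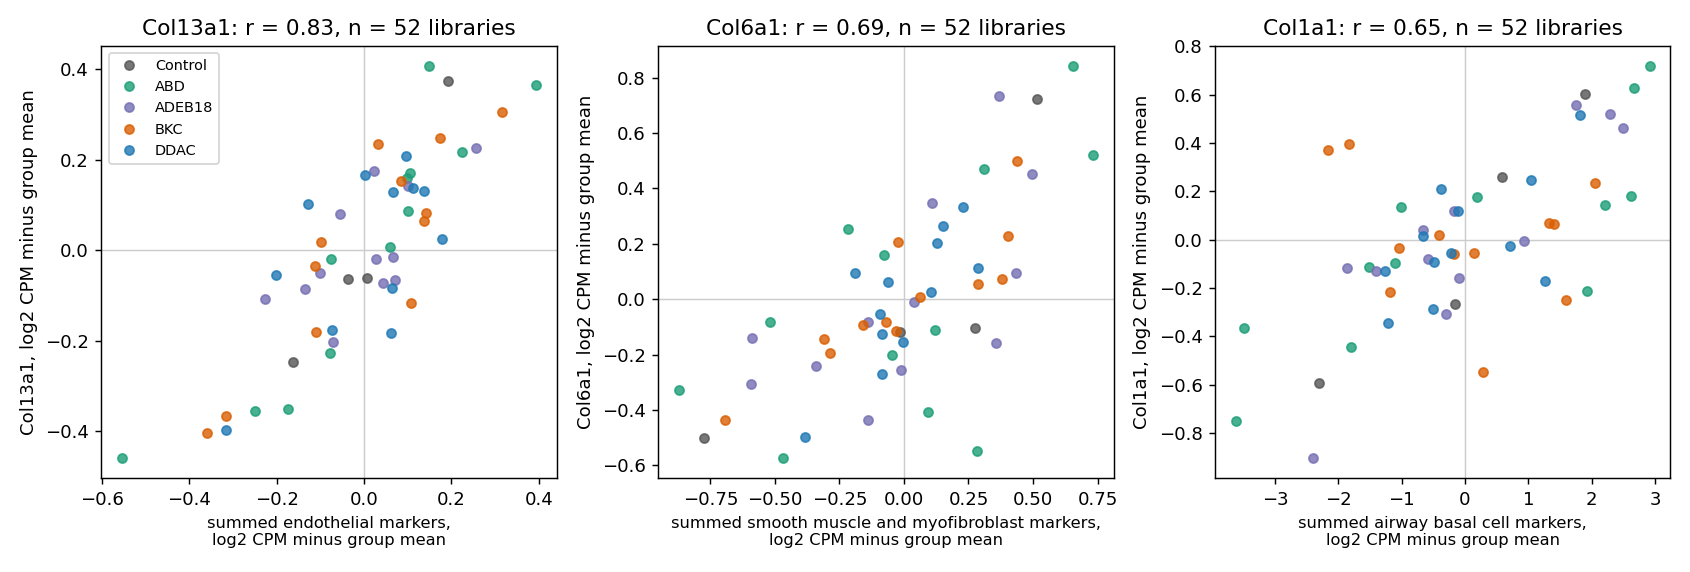
Residual log2 CPM (group mean removed) of Col13a1, Col6a1 and Col1a1 on the vertical axes against the residual log2 summed CPM of endothelial, smooth muscle and myofibroblast, and airway basal cell markers on the horizontal axes, 52 libraries coloured by compound. Points rise from left to right in each panel, with r = 0.83, 0.69 and 0.65.

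The genes that make, process and read collagen were tallied from lists. Their counts at ADEB18 0.5, BKC 0.5 and BKC 1 stand beside 4.66%, 9.15% and 10.4% of all genes called, and those at DDAC 0.0625, 0.125 and 0.25 beside 2.32%, 1.48% and 2.47%. Of 21 enzymes and helpers of hydroxylation, glycosylation and folding, all tested, 1 was called higher and 2 lower at ADEB18 0.5, 2 and 2 at BKC 0.5, and 2 and 1 at BKC 1, so 3, 4 and 3 of 21 in all. Ppib, the prolyl isomerase cyclophilin B, was higher in each of these groups, from 230 ± 25.3 CPM in Control to 327 ± 17.0, 309 ± 57.6 and 341 ± 15.8 CPM (log2 fold changes 0.51, 0.43 and 0.57; edgeR, adjusted p = 0.00614, 0.0103 and 0.000745). P4hb, the beta subunit of prolyl 4-hydroxylase and also a general disulfide isomerase, was higher at BKC 0.5 (0.36, 0.0485) and BKC 1 (0.39, 0.0268). Fkbp14, another prolyl isomerase, was lower in all of them (-0.52, -0.47 and -0.46; adjusted p = 0.0317, 0.0344 and 0.0347). Creb3l1, a transcription factor that promotes type I collagen expression, was lower at ADEB18 0.5 (-0.62, 0.0293), BKC 0.5 (-0.83, 0.00189) and DDAC 0.25, where it stood at 18.4 ± 3.12 CPM beside 43.1 ± 9.47 CPM in Control (-1.23 ± 0.18, adjusted p = 2.51e-05). The median log2 fold change of this list was 0.06, 0.01 and 0.16 at ADEB18 0.5, BKC 0.5 and BKC 1, beside -0.28, -0.35 and -0.39 for the collagen genes.

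Of 16 tested genes of propeptide processing and crosslinking, out of 19 listed, 1, 3 and 2 were called lower at ADEB18 0.5, BKC 0.5 and BKC 1 and none higher by edgeR; DESeq2 called 2, 3 and 4, of which 1 at BKC 1 was higher. Sparc, a collagen-binding matrix protein, was lower at ADEB18 0.5, at all BKC doses and at all DDAC doses: from 7037 ± 274 CPM in Control to 4755 ± 186 CPM at ADEB18 0.5 (-0.57 ± 0.09, edgeR, adjusted p = 0.000531), 4558 ± 385 CPM at BKC 1 (-0.63 ± 0.10, 5.37e-05) and 5035 ± 649 CPM at DDAC 0.25 (-0.48 ± 0.09, 0.00413). Adamts2, which removes the amino propeptide of fibril collagens, was lower at BKC 0.5 (-0.65, adjusted p = 0.00595) and BKC 1 (-0.50, 0.0329), and Loxl1, a crosslinking lysyl oxidase, at BKC 0.5 (-0.57, 0.0114). Of 12 collagen receptors, all tested, 2, 2 and 3 were called lower at ADEB18 0.5, BKC 0.5 and BKC 1. These were Ddr2, a receptor kinase for fibril collagen (163 ± 7.27 CPM in Control, 112 ± 7.23 CPM at BKC 1, -0.55 ± 0.13, edgeR, adjusted p = 0.00515), Itga1, a collagen-binding integrin chain (-0.54, -0.57 and -0.61 in these groups), and Itga11 at BKC 1 (-0.93, 0.0264).

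Of 9 collagen-degrading enzymes, all tested, Mmp2 was lower at ADEB18 0.5 (-0.44, edgeR, adjusted p = 0.0453) and BKC 0.5 (-0.42, 0.0341) and Mmp16 at BKC 0.5 (-0.89, 0.00406) and BKC 1 (-0.79, 0.00897). Of 20 genes of the TGF-beta pathway, the best known driver of collagen expression, all tested, 1 was called higher and 1 lower at ADEB18 0.5, 0 and 5 at BKC 0.5, 3 and 2 at BKC 1, and 1, 1 and 2 were called higher, with 0 lower, at DDAC 0.0625, 0.125 and 0.25. Tgfbr2, a receptor chain, was higher in 5 of these groups and highest at DDAC 0.25 (196 ± 19 CPM in Control, 394 ± 29.9 CPM, 1.01 ± 0.20, adjusted p = 0.00413). Ltbp4, which stores latent TGF-beta in the matrix, was lower at ADEB18 0.5, BKC 0.5 and BKC 1 (-0.68, -0.67 and -0.64; adjusted p = 0.00347, 0.00164 and 0.00184). Of 11 recruited monocyte and macrophage markers tested, 6, 6 and 7 were called higher by edgeR at ADEB18 0.5, BKC 0.5 and BKC 1, beside 4.66%, 9.15% and 10.4% of all genes called in either direction. Their summed level was 1363 ± 114 CPM in Control and 2528 ± 35.3, 2758 ± 695 and 3099 ± 782 CPM in these groups. At DDAC 0.0625, the other group with a fall of Col6a3, 0 were called by edgeR, 0 had an unadjusted p under 0.05 and DESeq2 called 0, with a sum of 1422 ± 158 CPM. The part of these markers in the collagen values was not tested.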

How the data were processed

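RNA was extracted with Trizol, and libraries were made from 500 ng of total RNA with the Lexogen QuantSeq 3' kit, per the labels' protocols. Reads were processed with fastp, STAR and HTSeq on mRatBN7.2, per the submitters' processing notes; no version is named, and strand setting and annotation release are not given in the sources used for this work. The authors deposited raw counts per gene symbol, 1 file per library, and 3' tags shared by near-identical copies or overlapping genes cannot be separated in them.

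From these counts, edgeR 4.0.16 (limma 3.58.1, R 4.3.3) gave TMM library sizes, a filter on low counts by group (filterByExpr) and a quasi-likelihood fit with 1 term per group over all 52 libraries. The 28 comparisons were 12 against Control, 4 between the highest and the lowest dose and 12 between compounds at 1 dose value. p-values were adjusted by Benjamini-Hochberg over 17796 genes, with calls at 0.05, and intervals are at 95%. All p-values measure the spread between the rats of this series. Correlations used residual log2 CPM (prior count 2) and 100000 permutations within groups, two-sided. DESeq2 1.42.0, RLE size factors, no filter, a replicate block, the 2 groups alone, fold thresholds and leaving out each library were alternatives. The edgeR comparison of BKC 1 with Control was checked on simulated counts with known folds, and the other tests had no such check. The simulated folds were all at least 2-fold and no outlying library was added. The check therefore does not cover smaller folds or calls that rest on single libraries.

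Replicate numbers did not pair rats: the mean residual correlation was 0.0039 between libraries of the same number and -0.0013 between others. Promoter windows came from RefSeq's GRCr8 table, another assembly than that of the counts, so no count was placed on it. The collagen genes and gene lists were chosen with earlier results of these data known; genes named with full values are those called in any comparison plus Col1a1, Col3a1 and Col4a1, and marker relations were chosen after seeing the data.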

Additional observations from a re-analysis of the deposited data

Results flagged for a closer look

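Single libraries stood apart in 15 of 169 group values of 13 collagen genes. In these, the gap to the nearest of the other libraries exceeded Dixon's critical share of the group's range for 4 libraries. For independent, normally distributed values about 1 in 20 would exceed it. The CPM were not transformed, some were 0 and the genes are correlated, so this rate need not hold here. In BKC 1, replicate 4 had 175 CPM of Col12a1 beside 38.7 to 59.9 CPM in the others, replicate 2 had 19.9 CPM of Col4a5 beside 46.4 to 51.7 CPM, and replicate 4 had 4.80 CPM of Col4a6 beside 9.76 to 10.8 CPM. In BKC 0.5, replicate 2 had 1915 CPM of Col3a1 beside 2517 to 2641 CPM, and 17.6 CPM of Col4a6 beside 9.89 to 10.8 CPM. In BKC 0.25, replicate 2 had 607 CPM of Col6a3 beside 643 to 644 CPM. Control replicate 3 had 1417 CPM of Col6a2 beside 694 to 769 CPM. In ABD 0.5, replicate 2 had 902 CPM of Col6a1 beside 379 to 466 CPM, and replicate 3 had 18.9 CPM of Col4a6 beside 14.4 to 14.7 CPM. In ADEB18 0.125, replicate 4 had 215 CPM of Col13a1 beside 171 to 178 CPM, and replicate 2 had 0.322 CPM of Col19a1 beside 0 CPM. In ADEB18 0.25, replicate 3 had 3.29 CPM of Col19a1 beside 0.213 to 0.508 CPM. In ADEB18 0.5, replicate 1 had 608 CPM of Col6a3 beside 509 to 520.5 CPM. In DDAC 0.125, replicate 2 had 151 CPM of Col13a1 beside 218 to 219 CPM, and replicate 4 had 13.6 CPM of Col4a6 beside 23.4 to 25.1 CPM.

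Compounds given at the same dose value differed in 6 collagen values by edgeR. The log2 differences were -0.92 for Col13a1 between BKC and ABD at 0.5, -0.77 for Col13a1 and 0.52 for Col16a1 between ADEB18 and ABD at 0.5, and 1.29 for Col12a1 and 1.03 for Col4a5 between DDAC and ABD at 0.125. For Col19a1 between ADEB18 and DDAC at 0.125 the fitted value was -4.55, which depends on the prior count because 3 of the 4 ADEB18 libraries had 0 counts.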

How the results depend on the processing

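Of 29 called collagen values, 4 held without each library in turn, 15 under RLE size factors, no filter, the replicate block, the 2 groups alone and DESeq2, and 3 under all of these; none of these settings reversed a value. Those 3, all of Col13a1 (-0.80, -0.92 and -0.77), fall short of a 2-fold change. Leaving out 1 library gave 0 to 4 calls at ADEB18 0.5, 0 to 4 at BKC 0.5, 4 to 7 at BKC 1 and 0 to 2, 0 to 1 and 0 to 1 at DDAC 0.0625, 0.125 and 0.25 against Control, 0 to 6 and 0 to 5 for the ADEB18 and BKC dose ranges, 0 to 3 for ADEB18 against DDAC and 0 to 4 for DDAC against ABD at 0.125, and 1 to 2 and 1 to 3 for BKC and ADEB18 against ABD at 0.5. The F test gave 13 to 16. Without a filter on low counts, 1 call stood at DDAC 0.0625, 1 in the ADEB18 dose range and 1 for ADEB18 against ABD at 0.5. With the 2 groups alone, 5 stood at ADEB18 0.5, 1 at BKC 0.5 and 4 at BKC 1. In that setting 0 stood in the ADEB18 and 0 in the BKC dose range. It gave 0 for ADEB18 against DDAC and 1 for DDAC against ABD at 0.125. At 0.25 it gave 1 for DDAC against ADEB18, and at 0.5 it gave 4 for ADEB18 against ABD. DESeq2 gave 4 for DDAC against ABD at 0.125, 3, 1 and 1 for BKC against ABD, DDAC against ADEB18 and ADEB18 against ABD at 0.25, and 2 for BKC against ABD at 0.5; it gave no adjusted p for Col19a1. An unadjusted p under 0.05 with at least a 2-fold change gave 1 at ABD 0.5, 1, 1 and 2 at ADEB18 0.125, 0.25 and 0.5, 1, 0 and 3 at BKC 0.25, 0.5 and 1, 3 and 3 at DDAC 0.125 and 0.25, 1 in the ABD dose range, 4, 1 and 4 for ADEB18 against DDAC, ADEB18 against ABD and DDAC against ABD at 0.125, 2, 2 and 2 for BKC, DDAC and ADEB18 against ABD at 0.25 and 0 for ADEB18 against ABD at 0.5. An adjusted p under 0.05 with at least a 2-fold change, chosen after seeing the data, gave 0, 0, 1 and 1 at ADEB18 0.5, BKC 0.5, BKC 1 and DDAC 0.0625, 1 and 0 in the ADEB18 and BKC dose ranges, and 0 and 0 for BKC and ADEB18 against ABD at 0.5. RLE size factors moved no count by over 1.5 times. The replicate numbers do not pair rats, and with the replicate block no count moved by over 1.5 times (4 calls in the BKC dose range, 15 by the F test); 12 of 52 libraries correlated best with their own number. The causes of these changes were not tested. Depth limits Col25a1, Col26a1, Col22a1 and Col11a1, at 0 counts in some libraries.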

Other observations

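The ratio of Col1a1 to Col1a2, the chains of type I collagen, was lower than in every Control library in 5 dosed groups, a pattern noticed after the data were seen. The CPM ratio was 2.08 ± 0.31 in Control (1.80 to 2.52, n = 4), 1.35 ± 0.27 at ADEB18 0.5, 1.25 ± 0.32 at BKC 0.25 and 1.22 ± 0.13, 1.30 ± 0.12 and 1.18 ± 0.06 at DDAC 0.0625, 0.125 and 0.25. Each of these groups had an exact two-sided permutation p of 0.0286, the smallest that 4 against 4 libraries allow, and 0.0686 after adjustment over 12 groups, so 0 passed 0.05. At BKC 1 the ratio was 1.51 ± 0.54 (exact permutation p = 0.114). All these groups share the Control libraries.

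Col4a5 and Col4a6, neighbours whose chains share a trimer, had r = 0.054 within groups over 52 libraries (rho = 0.097, permutation p = 0.761 and 0.534), and r = 0.10 without the 2 farthest libraries, a pair also chosen after the data were seen.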
